A study of Mus musculus with 33 samples.

Results

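Endothelial cells form the inner lining of every blood and lymph vessel. The genes described here are 10 that are known for their expression in those cells: Icam2, Sox18, Mmrn2, Egfl7, Esam, Tek, Cdh5, Kdr, Pecam1 and Tie1. They were chosen by symbol, with earlier results of these data known. Every probe annotated to them was read, and the probe that was brightest on average over all arrays stood for each gene. These are 10 of the 19057 genes with a probe of 1 symbol, and all 10 were among the 9630 genes that were detected often enough to be tested. Interscapular brown fat, the heat-producing depot between the shoulder blades, was taken whole from C57BL/6J mice that lived singly at 24 °C in a cycle of 12-hour light and dark. A semi-purified AIN-76 diet was the normal diet, and its high-fat form supplied 39.2 kcal% as fat, listed as 20% fat with 1% cholesterol. The normal diet has a group at week 0, and both diets have one at each of weeks 2, 4, 8, 20 and 24. With 3 arrays to a group this makes 11 groups and 33 arrays. Every sample carries the same age label, 7 weeks, and no label says that the replicates were separate animals, so p-values measure only the spread between these samples. The series title asks how a high-fat diet affects brown fat development, so diets were compared within each week and weeks within each diet.

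Endothelial cells hold to one another through junction proteins such as VE-cadherin and PECAM1, and they respond to vascular endothelial growth factors and angiopoietins through receptor tyrosine kinases. Transcription factors of the ETS, SOX and GATA families drive many of their genes. Brown fat is among the tissues richest in capillaries, which bring oxygen and fatty acids to the heat-producing cells and carry heat away.

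Illumina bead arrays measure RNA by how brightly its probe lights up, and all values below are normalized signals on the log2 scale, on which a difference of 1 is a doubling. Array medians of the raw intensities ran from 129.5 to 182.7, 29.5% to 33.8% of probes were detected per array, and replicate arrays had an r across genes between 0.977 and 0.996. Week 24, with 6 arrays, was separate from the other 27 arrays on the first principal component, with scores of 33.5 to 46.8 against -16.8 to 3.84, and no label says whether week and array batch coincide, so these cannot be told apart and the diet mean and the tests over weeks are also given without week 24. The tissue label was borne out by 9 measured genes of brown adipocytes, whose summed signal was between 230000 and 303000 on every array. The 10 endothelial genes have 16 probes, of which 14 passed the detection filter. The chosen probe of Kdr was detected on 16 of 33 arrays, and those of the other 9 genes on all 33. Because whole tissue was measured, fewer endothelial cells and less RNA per endothelial cell cannot be told apart in any result below.

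Promoters of the 3 receptor tyrosine kinases are shown because they are the largest group of the 10 genes with a common role whose promoters could be matched. RefSeq promoters of the GRCm38.p6 assembly, each running from 250 bases before to 50 bases after a gene start, covered 4 of the 10 genes. Capitals mark letters searched for on both strands: the ETS-type words AGGAAG and CGGAAG, the SOX-type word ACAAT and the GATA-type word AGATAA. The Tek promoter lies on the plus strand at chr4:94739039-94739338. The Tie1 promoter lies on the minus strand at chr4:118489800-118490099. The Kdr promoter lies on the minus strand at chr5:75978406-75978705.
Tek: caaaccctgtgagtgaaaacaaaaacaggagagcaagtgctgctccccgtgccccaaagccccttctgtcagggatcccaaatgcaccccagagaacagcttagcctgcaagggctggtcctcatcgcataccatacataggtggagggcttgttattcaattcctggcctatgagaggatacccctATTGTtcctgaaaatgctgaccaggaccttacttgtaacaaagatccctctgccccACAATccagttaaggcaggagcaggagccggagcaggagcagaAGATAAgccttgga
Tie1: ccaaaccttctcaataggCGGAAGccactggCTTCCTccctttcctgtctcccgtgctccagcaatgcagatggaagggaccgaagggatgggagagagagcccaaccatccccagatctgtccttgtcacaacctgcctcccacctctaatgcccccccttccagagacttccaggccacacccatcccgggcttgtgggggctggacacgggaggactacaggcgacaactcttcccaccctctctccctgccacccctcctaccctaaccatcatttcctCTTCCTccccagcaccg
Kdr: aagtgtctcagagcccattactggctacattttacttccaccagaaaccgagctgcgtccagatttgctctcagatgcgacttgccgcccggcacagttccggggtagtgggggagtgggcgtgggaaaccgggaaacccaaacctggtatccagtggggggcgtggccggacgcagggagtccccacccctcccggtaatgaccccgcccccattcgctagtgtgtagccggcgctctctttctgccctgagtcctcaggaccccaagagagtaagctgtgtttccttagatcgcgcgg
Tek held 2 SOX-type words and 1 GATA-type word in this window and no ETS-type word. Tie1 held 2 copies of AGGAAG and 1 of CGGAAG, and Kdr held none of the 4 words. Egfl7 has 3 listed starts, whose promoters held 3, 2 and 0 ETS-type words. Among 32851 mouse promoters of this length 46.5% held at least 1 of both ETS-type words, 31.0% held ACAAT and 11.2% held AGATAA, so these words are common and a match describes the letters only.

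High-fat feeding went with higher signals of most of these endothelial genes, and the difference between the diets was largest late in the course. Averaged over the 5 weeks with both diets, 8 of the 10 genes were higher on high-fat diet after adjustment over all genes tested, against 15.4% of all 9630 genes. None of the 10 was lower, against 11.7% of all genes, and the 2 that did not pass were Kdr and Tie1. The median difference of the 10 genes was 0.23, against 0.00 for all genes tested. Because the 10 were chosen with earlier results of these data known, such contrasts with all genes, here and below, are descriptions and no independent test. With median shift scaling of the arrays in place of quantiles 2 of the 10 passed, and with macrophage markers as a covariate 1 passed, as described further on. Over all alternatives 186 to 3153 of all genes passed for this mean, beside 2608 in the main fit. The total of each alternative fit is not given, here and below, so its count of the 10 cannot be set against other genes. Icam2, an adhesion molecule, led with a rise of 1.35-fold, and the other 7 rose by 1.13-fold to 1.2-fold. The largest differences at week 24 were 1.67-fold for Icam2 and 1.47-fold for Egfl7, and at week 20 1.48-fold for Icam2.

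**Figure D1:**
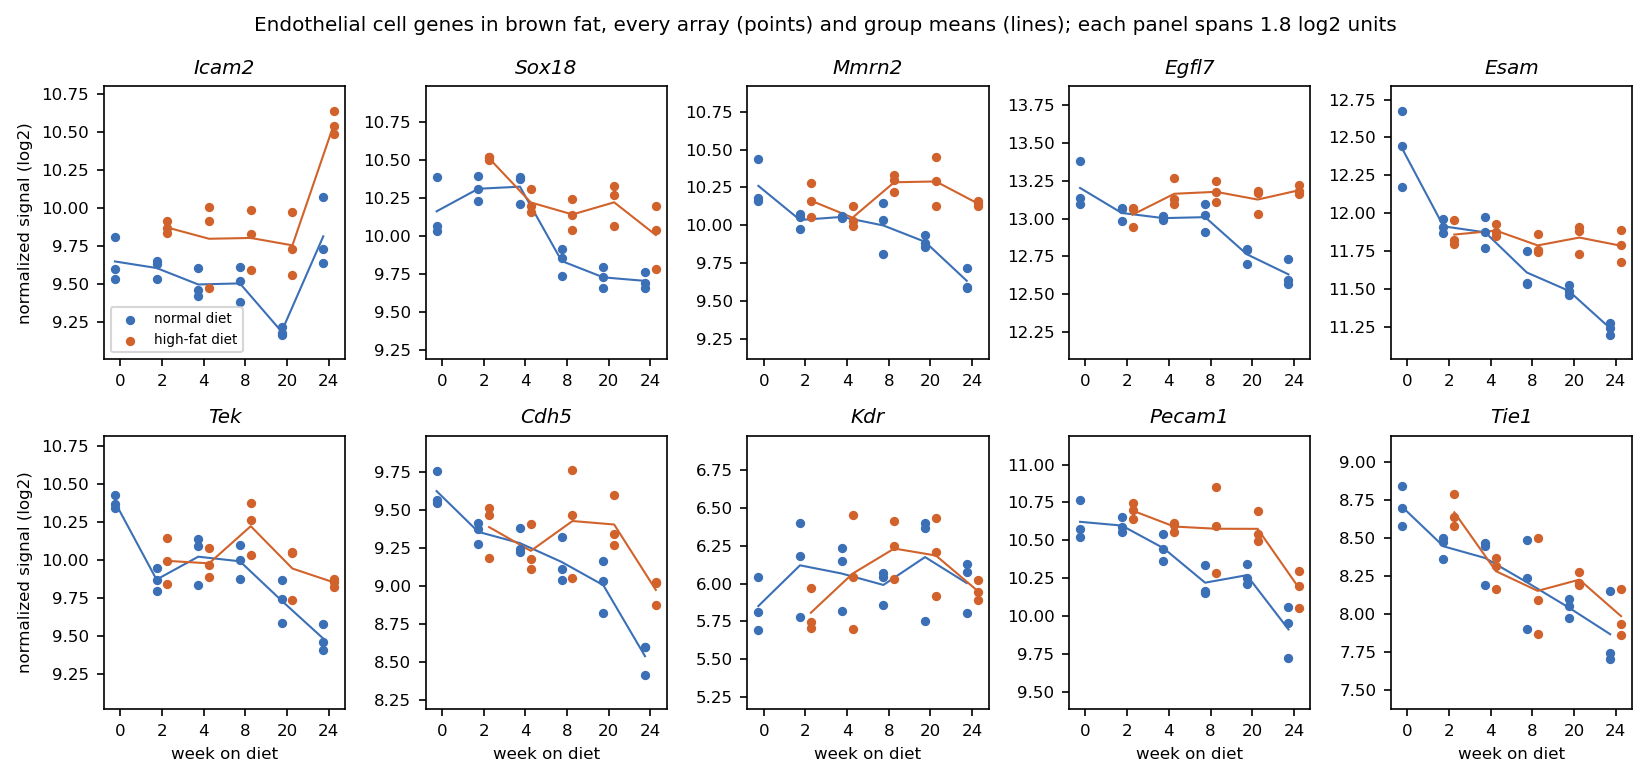
Normalized log2 signal (vertical axis) of each endothelial gene on every array (points) by week on diet (horizontal axis, weeks not to scale), with lines through the means of 3 arrays for normal diet (blue) and high-fat diet (orange); each panel spans the same range. At week 24 the high-fat arrays of 7 genes lie wholly above the normal diet arrays, while those of Kdr, Pecam1 and Tie1 overlap with them.

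Cdh5 encodes VE-cadherin, the adhesion molecule on which endothelial junctions are built. Normal diet arrays of Cdh5 read 9.76, 9.57 and 9.55 at week 0, 9.38, 9.28 and 9.42 at week 2, 9.25, 9.22 and 9.38 at week 4 and 9.32, 9.04 and 9.12 at week 8. High-fat arrays of Cdh5 read 9.19, 9.51 and 9.47 at week 2, 9.41, 9.11 and 9.18 at week 4 and 9.76, 9.05 and 9.47 at week 8. At these 3 weeks the arrays of both diets overlapped. By week 20 normal diet arrays read 9.16, 9.03 and 8.82 and high-fat arrays 9.35, 9.60 and 9.27. At week 24 the same groups read 8.60, 8.42 and 8.60 and 8.87, 9.02 and 9.03. At weeks 20 and 24 every high-fat array lay above every normal diet array, and the normal diet arrays of week 24 were the lowest of all 33. Averaged over the weeks, Cdh5 rose by 0.22 on high-fat diet (SE 0.060, adjusted p = 0.00828), and at week 24 by 0.44 (SE 0.13, adjusted p = 0.0218). At week 20 its difference of 0.40 (SE 0.13) had an adjusted p of 0.0829.

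Pecam1 encodes an adhesion molecule of endothelial junctions that platelets and leukocytes also carry. Its normal diet arrays read 10.77, 10.52 and 10.58 at week 0, 10.65, 10.59 and 10.55 at week 2, 10.36, 10.44 and 10.54 at week 4 and 10.15, 10.17 and 10.34 at week 8. Its high-fat arrays read 10.64, 10.70 and 10.75, then 10.60, 10.55 and 10.62, then 10.85, 10.59 and 10.29 at weeks 2, 4 and 8. The groups separated at week 4 and overlapped at weeks 2 and 8, at week 8 because the lowest high-fat array fell under the highest normal diet array. At week 20 normal diet arrays read 10.25, 10.21 and 10.35 against 10.54, 10.69 and 10.49 on high-fat diet. Week 24 gave 10.06, 9.95 and 9.73 against 10.05, 10.30 and 10.20. The diets were apart at week 20, and at week 24 the lowest high-fat array fell just under the highest normal diet array. Pecam1 was higher on high-fat diet by 0.23 on average (SE 0.048, adjusted p = 6.98e-04). No single week passed for it, and the nearest were 0.27 at week 24 (adjusted p = 0.0808) and 0.36 at week 8 (adjusted p = 0.0820).

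Esam encodes an adhesion molecule of endothelial tight junctions and platelets. On normal diet Esam read 12.68, 12.17 and 12.44 at week 0, 11.87, 11.96 and 11.91 at week 2, 11.88, 11.77 and 11.98 at week 4 and 11.54, 11.54 and 11.76 at week 8. On high-fat diet it read 11.80, 11.96 and 11.83 at week 2, 11.88, 11.85 and 11.93 at week 4 and 11.76, 11.86 and 11.74 at week 8. Week 0 held the 3 highest arrays of all 33, and the diets overlapped at weeks 2, 4 and 8. At week 20 its arrays read 11.46, 11.49 and 11.53 on normal and 11.73, 11.91 and 11.88 on high-fat diet. At week 24 they read 11.20, 11.25 and 11.28 and 11.68, 11.89 and 11.79. The high-fat arrays lay between 11.68 and 11.96 at all weeks, while the normal diet arrays were lower at weeks 20 and 24 than at any earlier week. Esam rose by 0.35 on high-fat diet at week 20 (SE 0.095, adjusted p = 0.0310) and by 0.54 at week 24 (SE 0.095, adjusted p = 1.19e-04). Its mean difference over the weeks was 0.21 (SE 0.042, adjusted p = 6.54e-04).

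Icam2 encodes a ligand of leukocyte integrins that endothelial cells carry without stimulation and that lymphocytes and platelets carry as well. Its normal diet arrays stood at 9.81, 9.53 and 9.60 at week 0, 9.53, 9.65 and 9.63 at week 2, 9.42, 9.60 and 9.46 at week 4 and 9.38, 9.52 and 9.61 at week 8. High-fat feeding gave 9.91, 9.83 and 9.87 at week 2, 9.91, 10.01 and 9.47 at week 4 and 9.59, 9.99 and 9.83 at week 8. The diets were apart at week 2 and overlapped by 1 high-fat array at weeks 4 and 8. At week 20 the values were 9.17, 9.17 and 9.22 on normal diet and 9.97, 9.56 and 9.73 on high-fat diet. At week 24 they were 9.73, 9.64 and 10.07 and 10.49, 10.64 and 10.54. Normal diet arrays of week 20 were the lowest of all 33 and high-fat arrays of week 24 the highest. Icam2 rose by 0.57 at week 20 (SE 0.13, adjusted p = 0.00958), by 0.74 at week 24 (SE 0.13, adjusted p = 1.02e-04) and by 0.44 on average (SE 0.057, adjusted p = 2.51e-06). Icam2 and Pecam1 were the 2 of 10 genes with a higher mean on high-fat diet at all 5 weeks, a pattern that 11.5% of all genes showed, though with median shift scaling both were lower at week 8 (-0.062 and -0.026).

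Egfl7 encodes a protein that endothelial cells secrete into their matrix and that guides the forming of vessel tubes. On normal diet the arrays read 13.38, 13.09 and 13.13 at week 0, 13.06, 12.98 and 13.07 at week 2, 13.002, 13.02 and 12.99 at week 4 and 12.91, 13.10 and 13.02 at week 8. On high-fat diet the arrays read 13.07, 13.06 and 12.95 at week 2, 13.10, 13.13 and 13.26 at week 4 and 13.11, 13.25 and 13.17 at week 8. The diets overlapped at week 2 and were narrowly apart at weeks 4 and 8. At week 20 Egfl7 read 12.80, 12.70 and 12.79 on normal diet and 13.03, 13.18 and 13.17 on high-fat diet. At week 24 it read 12.59, 12.57 and 12.73 and 13.16, 13.22 and 13.18. The gap between the diets at these weeks was wider than the range within either group. Egfl7 rose by 0.36 at week 20 (SE 0.078, adjusted p = 0.00784), by 0.56 at week 24 (SE 0.078, adjusted p = 7.03e-06) and by 0.25 on average (SE 0.035, adjusted p = 7.52e-06).

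Mmrn2 encodes an endothelial matrix glycoprotein of the multimerin family. Signals on normal diet were 10.44, 10.16 and 10.18 at week 0, 9.97, 10.08 and 10.06 at week 2, 10.05, 10.05 and 10.06 at week 4 and 9.81, 10.15 and 10.04 at week 8. Signals on high-fat diet were 10.05, 10.28 and 10.16 at week 2, 10.03, 10.13 and 9.996 at week 4 and 10.22, 10.33 and 10.30 at week 8. The diets overlapped at weeks 2 and 4 and were apart from week 8 on. At week 20 normal diet gave 9.86, 9.88 and 9.94 and high-fat diet 10.13, 10.29 and 10.45. At week 24 normal diet gave 9.59, 9.60 and 9.72 and high-fat diet 10.13, 10.16 and 10.14. The normal diet arrays of week 24 were the lowest of all 33. Mmrn2 rose by 0.40 at week 20 (SE 0.090, adjusted p = 0.00967), by 0.51 at week 24 (SE 0.090, adjusted p = 1.32e-04) and by 0.26 on average (SE 0.040, adjusted p = 2.00e-05).

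Sox18 encodes a transcription factor of endothelial differentiation, needed for lymphatic vessels to form. Its arrays on normal diet gave 10.39, 10.07 and 10.03 at week 0, 10.39, 10.31 and 10.23 at week 2, 10.39, 10.37 and 10.21 at week 4 and 9.74, 9.85 and 9.91 at week 8. Its arrays on high-fat diet gave 10.52, 10.50 and 10.52 at week 2, 10.20, 10.16 and 10.31 at week 4 and 10.24, 10.14 and 10.04 at week 8. The high-fat arrays of week 2 were the highest of all 33, the diets overlapped at week 4 and they were apart at week 8. At week 20 Sox18 gave 9.73, 9.66 and 9.80 on normal and 10.27, 10.06 and 10.33 on high-fat diet. At week 24 it gave 9.69, 9.66 and 9.76 and 9.78, 10.20 and 10.04. Both weeks separated the diets, though at week 24 the lowest high-fat array was close to the highest normal diet array. Sox18 rose by 0.49 at week 20 (SE 0.10, adjusted p = 0.00529), by 0.30 at week 24 (SE 0.10, adjusted p = 0.0334) and by 0.24 on average (SE 0.045, adjusted p = 2.47e-04).

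Tek encodes the angiopoietin receptor of endothelial cells. On normal diet Tek read 10.37, 10.43 and 10.35 at week 0, 9.80, 9.95 and 9.87 at week 2, 9.84, 10.14 and 10.09 at week 4 and 10.004, 10.10 and 9.88 at week 8. With high-fat feeding Tek read 9.99, 10.15 and 9.85 at week 2, 9.97, 9.89 and 10.08 at week 4 and 10.37, 10.04 and 10.26 at week 8. These groups overlapped at all 3 weeks. At week 20 the readings were 9.59, 9.87 and 9.74 on normal diet and 10.05, 10.05 and 9.74 on high-fat diet. At week 24 the readings were 9.41, 9.46 and 9.58 and 9.86, 9.88 and 9.83. Week 24 was the only week at which the diets were apart. Tek rose by 0.37 at week 24 (SE 0.11, adjusted p = 0.0136) and by 0.18 on average (SE 0.047, adjusted p = 0.00600).

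Tie1, a related receptor that modulates signalling through the angiopoietin receptor, did not pass for diet. Its group means on normal diet were 8.71 ± 0.13, 8.45 ± 0.071, 8.37 ± 0.15, 8.21 ± 0.30, 8.04 ± 0.063 and 7.87 ± 0.25 at weeks 0, 2, 4, 8, 20 and 24 (SD, n = 3 each). On high-fat diet they were 8.67 ± 0.11, 8.28 ± 0.11, 8.15 ± 0.32, 8.23 ± 0.045 and 7.99 ± 0.16 from week 2 on (SD, n = 3 each). The mean was lowest at week 24 under both diets, and the diets were apart at weeks 2 and 20. Its mean difference was 0.08 (SE 0.064, adjusted p = 0.405), which does not show that the diets were alike.

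Kdr, the main signalling receptor for vascular endothelial growth factor, was read near the detection limit. Its group means on normal diet were 5.85 ± 0.18, 6.12 ± 0.31, 6.07 ± 0.22, 5.99 ± 0.12, 6.17 ± 0.36 and 6.00 ± 0.17 at weeks 0, 2, 4, 8, 20 and 24 (SD, n = 3 each). On high-fat diet they were 5.81 ± 0.14, 6.06 ± 0.37, 6.23 ± 0.19, 6.19 ± 0.26 and 5.95 ± 0.065 from week 2 on (SD, n = 3 each). All 10 steps between neighbouring groups, in the order of their means, had overlapping arrays, which such an ordering favours for any gene. The mean difference between the diets was -0.02 (SE 0.083, adjusted p = 0.870), and it was 0.015 with array weights. The other Kdr probe was detected on 0 arrays, so the arrays show little of this gene in either direction.

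Across single weeks the count of endothelial genes that passed rose late. In the limma fit 0 of 10 passed at weeks 2, 4 and 8, where 1.13%, 0.768% and 0.914% of all genes were called higher. An unadjusted p under 0.05 was reached by 1, 1 and 6 of the 10, a looser rule to which those percentages do not apply. Here and below the share of all genes at that rule is not given, so such counts cannot be set against other genes. At week 20 5 of 10 were higher (Icam2, Sox18, Mmrn2, Egfl7 and Esam), against 3.04% of all genes. At week 24 7 of 10 were higher (the same 5 with Tek and Cdh5), against 12.7% of all genes. The median difference of the 10 genes was 0.11, 0.00, 0.25, 0.36 and 0.40 at weeks 2, 4, 8, 20 and 24. All 3 high-fat arrays lay above all 3 normal diet arrays for 3, 2, 3, 8 and 7 of the 10 genes in turn, against 12.2%, 12%, 7.76%, 14.2% and 20.6% of all genes.

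**Figure D2:**
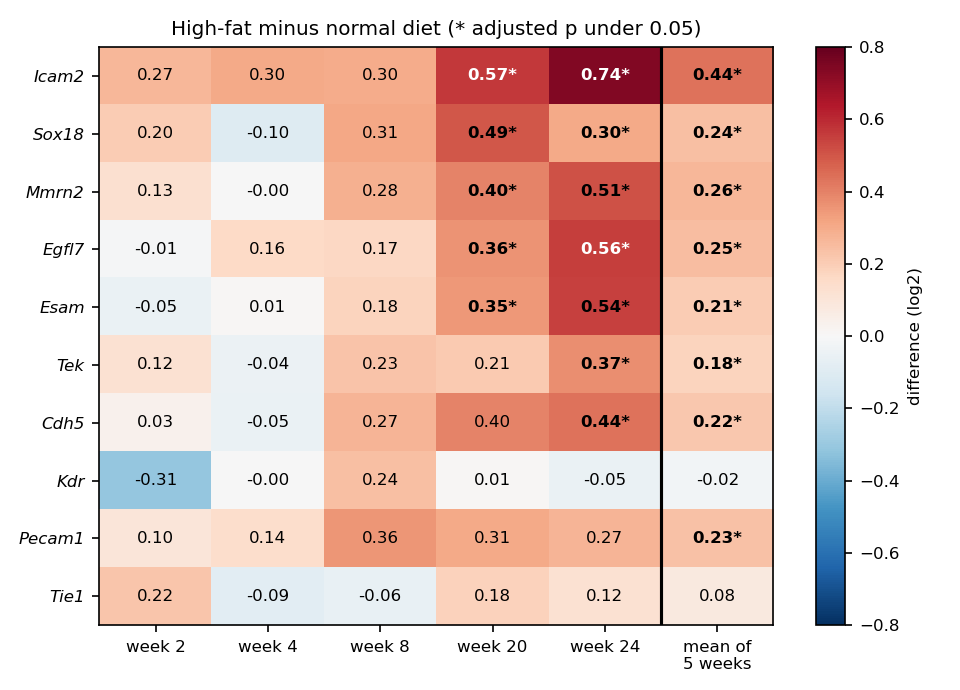
High-fat minus normal diet (log2, colour and printed value) for each endothelial gene (rows) at each week and as the mean of 5 weeks (columns), with an asterisk where the adjusted p is under 0.05. Asterisks appear in the columns of week 20 (5 genes), week 24 (7 genes) and the mean (8 genes); at week 8 the signs of 8 genes turn when arrays are aligned by a median shift instead.

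Scaling and time both bear on these counts. With each array shifted to a common median in place of quantile normalization, 2 of 10 genes (Icam2 and Mmrn2) passed for the mean of the weeks, 0 at week 20 (4 at an unadjusted p under 0.05) and 6 at week 24. That scaling moved the median difference of all genes to -0.31 at week 8, -0.10 at week 20 and -0.07 for the mean, where the medians of the 10 endothelial genes were -0.08, 0.22 and 0.11, so they stayed above the median of all genes. It also changed the share of called genes that were higher for the mean of the weeks from 57% to 25.5%. Without week 24, 5 of 10 passed for the mean of the weeks, and Esam (0.12, adjusted p = 0.0816), Tek (0.13, adjusted p = 0.0944) and Cdh5 (0.16, adjusted p = 0.102) did not. At week 20 3 of 10 passed without normal diet replicate 1 of that week or without its high-fat replicate 3, and none in a fit of its 6 arrays alone (7 at an unadjusted p under 0.05). Single calls of week 20 for Icam2, Mmrn2 and Esam, and of week 24 for Sox18, Tek and Cdh5, were each lost when at least 1 of the 6 arrays of that week was left out.

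The size of the diet difference itself changed with the week for 3 of the 10 genes, against 6.41% of all genes. In an F test over the 5 within-week differences Egfl7 had F = 7.71 (adjusted p = 0.0106), Esam F = 6.73 (adjusted p = 0.0197) and Mmrn2 F = 5.28 (adjusted p = 0.0474), and Sox18 had an adjusted p of 0.0670. For Egfl7 the difference went from -0.01 at week 2 to 0.56 at week 24. For Esam it went from -0.05 to 0.54. Without week 24 none of the 10 passed this test (4 at an unadjusted p under 0.05), and without normal diet replicate 1 or high-fat replicate 2 of week 24 only Egfl7 did.

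Under normal diet the endothelial genes declined with the weeks. From week 0 to week 20, 9 of the 10 fell, against 18.4% of all genes, with a median of -0.45 over the 10 and -0.03 over all genes. From week 0 to week 24, 8 of the 10 fell, against 24.2% of all genes, with medians of -0.67 and 0.02. Both counts were the same with median shift scaling. At week 24 the junction genes Esam and Cdh5 had the largest falls of the 10, to 0.439 and 0.471 of their week 0 levels, while at week 20 these were Esam (to 0.521) and Tie1 (to 0.631).

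Esam fell by 1.19 (SE 0.095, adjusted p = 1.68e-10) from week 0 to week 24, Cdh5 by 1.09 (SE 0.13, adjusted p = 3.21e-07) and Pecam1 by 0.71 (SE 0.11, adjusted p = 7.42e-06). The angiopoietin receptor gene Tek fell by 0.90 (SE 0.11, adjusted p = 1.34e-07) and Tie1 by 0.84 (SE 0.14, adjusted p = 2.96e-05). Both had 3 arrays of week 0 above all 3 of week 24, as had Esam, Cdh5, Pecam1, Mmrn2, Egfl7 and Sox18. The share of all genes with this pattern is not given. The matrix genes Mmrn2 and Egfl7 fell by 0.63 (SE 0.090) and 0.57 (SE 0.078), and Sox18 by 0.46 (SE 0.10, adjusted p = 5.46e-04). Icam2 took another path: it fell by 0.46 to week 20 (SE 0.13, adjusted p = 0.00669) and stood 0.17 above its start at week 24 (SE 0.13, adjusted p = 0.294). Kdr differed by 0.32 at week 20 (adjusted p = 0.184) and 0.15 at week 24 (adjusted p = 0.521), and neither passed. Kdr passed as higher at week 20 without replicate 1 of that week (0.53, adjusted p = 0.0362) and with array weights (0.41, adjusted p = 0.0482). Pecam1 missed the threshold for week 20 without replicate 1 of week 0 (-0.28, adjusted p = 0.0870) or replicate 2 of week 20 (-0.32, adjusted p = 0.0533).

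Any change over the 6 normal diet weeks passed for 9 of 10 genes, against 66.6% of all genes, so a change over time was shared by most genes measured. Any change over the 5 high-fat weeks passed for 6 of 10, against 64.5% of all genes. The 4 that did not pass under high-fat diet were Mmrn2 (adjusted p = 0.0901), Egfl7 (adjusted p = 0.298), Esam (adjusted p = 0.802) and Kdr (adjusted p = 0.206). With median shift scaling 6 of 10 passed again, but Mmrn2 (adjusted p = 0.00751), Egfl7 (adjusted p = 5.12e-05) and Esam (adjusted p = 2.78e-04) then passed while Tek (adjusted p = 0.0843), Cdh5 (adjusted p = 0.744) and Pecam1 (adjusted p = 0.153) did not, so which genes changed under high-fat diet depends on the scaling. With quantile scaling the high-fat means of Esam lay between 11.79 and 11.89 at all 5 weeks, while the normal diet means went from 11.91 at week 2 to 11.24 at week 24. Without week 24, 2 of 10 passed over the high-fat weeks.

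In comparisons added after the data were seen, week 24 was set against week 2 under each diet. On normal diet 8 of 10 genes were lower, against 21.3% of all genes, and with median shift scaling 5 were lower and 1 higher. On high-fat diet 4 were lower and 1 higher (background 22.2% and 28.8%), and with median shift scaling 1 was lower and 4 higher, so no direction is given for that diet. The difference between those changes passed for 2 of 10 genes with both scalings, against 4.8% of all genes called higher, with a median of 0.32 over the 10 genes (0.44 with median shift scaling).

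**Figure D3:**
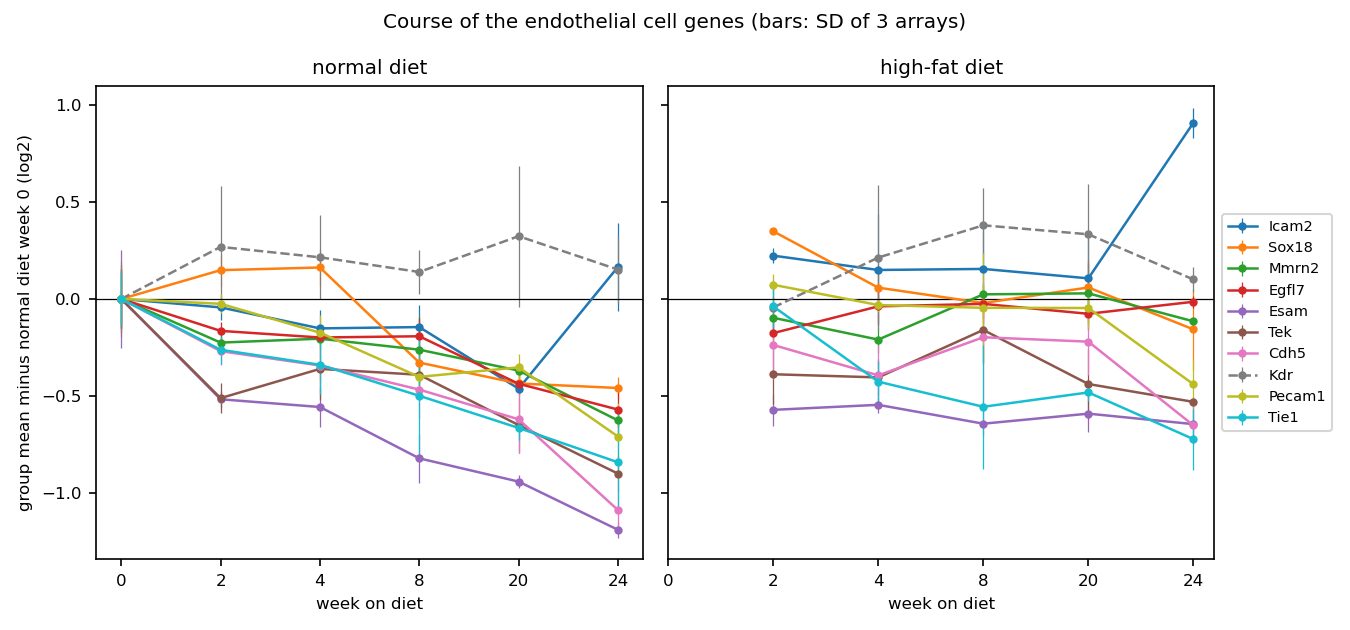
Group mean minus the mean of normal diet at week 0 (log2, vertical axis) by week on diet (horizontal axis, weeks not to scale) for each endothelial gene, on normal diet (left) and high-fat diet (right, which has no week 0 group); bars are the SD of 3 arrays. On normal diet 8 of 10 lines end below 0 by 0.46 to 1.19, while Icam2 and Kdr end above it.

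Each gene's 11 group means were also put in order. Normal diet at week 24 was the lowest group for 8 of 10 genes, the exceptions being Icam2 (normal diet, week 20) and Kdr (high-fat diet, week 2). The highest group was normal diet at week 0 for Egfl7, Esam, Tek, Cdh5 and Tie1. It was a high-fat group for Icam2 (week 24), Sox18 and Pecam1 (week 2), Mmrn2 (week 20) and Kdr (week 8). The span from the lowest to the highest group mean was 1.37 for Icam2, 1.19 for Esam and 1.09 for Cdh5, and 0.42 for Kdr, which had the smallest. Ordering by the mean makes the steps between neighbours small for any gene, so overlap of neighbours is a description and no test of a difference. Of the 10 steps between neighbouring groups, 7 to 10 per gene had overlapping arrays. For Esam the exceptions were the steps from normal diet week 24 to week 20, from week 20 to week 8, and from week 2 to week 0.

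Other probes of the same genes were read where they passed the detection filter. The Cdh5 probe ILMN_2866951 rose by 0.19 for the mean of the weeks (SE 0.046, adjusted p = 0.00316), beside 0.22 for the chosen probe ILMN_2771550. The Egfl7 probe ILMN_1215919 rose by 0.15 (SE 0.053, adjusted p = 0.0436), beside 0.25 for the chosen probe ILMN_3163288. At week 24 this Egfl7 probe differed by 0.29 (SE 0.12, adjusted p = 0.0964), which did not pass, beside 0.56 (SE 0.081) for the chosen probe. The Pecam1 probes disagreed in their calls: ILMN_3147074 differed by 0.13 (SE 0.080, adjusted p = 0.235) and ILMN_1226690, detected on 9 arrays, by 0.06 (SE 0.064, adjusted p = 0.536). From week 0 to week 24 on normal diet these Pecam1 probes differed by -0.37 (adjusted p = 0.0885) and -0.32 (adjusted p = 0.0668), beside -0.71 for the chosen probe. With the mean of a gene's probes in place of the brightest, the diet difference of Egfl7 no longer passed for a change between weeks (adjusted p = 0.0777).

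The 10 genes varied together to a moderate degree. Over the 33 arrays the 45 pairs of genes had a median Pearson r of 0.59, and the 9 pairs that hold Kdr a median of -0.09. The closest pair was the matrix genes Mmrn2 and Egfl7 at 0.86. After the 11 group means were subtracted the median fell to 0.17, and Mmrn2 with Egfl7 kept 0.64. All pairs share arrays, normalization and groups, so these values describe the arrays and carry no test.

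Outside the 10, the genes whose signal was most like the mean of their standardized values over the 33 arrays were Oxct1 (r of 0.89), Mgat4a (0.88), Aqp1 (0.87), Kank3 (0.85), Ldb2 (0.84), Armcx3 (0.84), Adam15 (0.83) and Stard8 (0.82). Oxct1 encodes an enzyme of ketone body use and Aqp1 a water channel of capillaries. Over the 27 arrays without week 24 their r was 0.72 to 0.88. On deviations from the group means it was 0.45 for Oxct1, 0.56 for Mgat4a and 0.58 for Aqp1, and between -0.14 and 0.45 for the other 5.

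Related genes of the vascular pathways were read by lists. Among ligands 8 of 12 were measured and 3 rose with the mean of the weeks, against 15.4% of all genes. These were Pdgfb, which recruits pericytes (0.23, adjusted p = 0.00485), Angpt2, which opposes vessel quiescence (0.27, adjusted p = 0.00728), and Vegfc, a lymphatic growth factor (0.25, adjusted p = 0.0182). Angpt2 rose by 0.86 at week 24 (SE 0.16, adjusted p = 3.75e-04). Vegfa, the main vascular growth factor, differed by 0.01 between the diets (SE 0.062, adjusted p = 0.949), Angpt1, the activating ligand of Tek, by 0.13 (adjusted p = 0.366) and Angptl4, an inhibitor of lipoprotein lipase, by 0.04 (adjusted p = 0.546). Angpt1 had the other sign at week 20 (-0.33, adjusted p = 0.438) and week 24 (-0.375, adjusted p = 0.253), and neither passed. On normal diet Vegfa fell by 1.01 from week 0 to week 24 (SE 0.14, adjusted p = 1.69e-06), while Angpt1 rose by 0.91 (SE 0.22, adjusted p = 0.00162).

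Among the other receptors of endothelium 12 of 14 were measured, 7 rose with high-fat diet and none fell, with a median of 0.20. Notch4, a receptor of arterial and sprouting endothelium, rose by 0.28 (adjusted p = 5.89e-06), the growth factor receptor gene Flt1 by 0.25 (adjusted p = 3.52e-04), the co-receptor gene Eng by 0.26 (adjusted p = 5.51e-04) and the endothelin receptor gene Ednrb by 0.23 (adjusted p = 0.00581). On normal diet 8 of the 12 fell from week 0 to week 24 and none rose, with a median of -0.54. The share of all genes called was 15.4% higher for the diet mean and 24.2% lower for that course.

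Of 16 measured surface and junction genes 10 rose and 1 fell with high-fat diet (15.4% and 11.7% of all genes), with a median of 0.23. They included the surface glycoprotein genes Cd93 (0.31, adjusted p = 1.40e-05) and Emcn (0.24, adjusted p = 2.21e-04) and the adhesion molecules of activated endothelium Vcam1 (0.37, adjusted p = 2.94e-04) and Icam1 (0.42, adjusted p = 3.40e-04). The 1 that fell, named after its value was seen, was Mcam, an adhesion molecule of vessel walls, by 0.20 (adjusted p = 0.00520). On normal diet the surface and junction genes had no common course. From week 0 to week 20, 4 fell and 4 rose, with a median of 0.08. To week 24, 5 fell and 2 rose, with a median of -0.09. The shares of all genes called lower were 18.4% and 24.2%. Of 16 transcription and signalling genes 9 rose and none fell, beside 15.4% and 11.7% of all genes, with a median of 0.19. Arhgef15 (0.28, adjusted p = 2.94e-06), Arap3 (0.31, adjusted p = 2.10e-05), the ETS factor gene Ets1 (0.32, adjusted p = 3.49e-05) and Sox7 (0.27, adjusted p = 4.36e-04) had the smallest p. At week 24, 3 of the 16 rose, close to the 12.7% of all genes called higher, and 1 fell, with a median of 0.26. The 1 that fell, named after its value was seen, was Nos3, the endothelial nitric oxide synthase gene (by 0.53, SE 0.15, adjusted p = 0.0120). On normal diet 6 of these 16 fell and 1 rose from week 0 to week 20, with a median of -0.25. To week 24, 6 fell and none rose, with a median of -0.22.

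Of 10 measured genes of lipid and water handling in capillaries 3 rose and 2 fell with high-fat diet, against 15.4% and 11.7% of all genes. The aquaglyceroporin gene Aqp7 rose by 0.28 (adjusted p = 3.94e-05) and the homeobox gene Meox2 by 0.29 (adjusted p = 3.55e-04). The fatty acid binding protein genes Fabp5 and Fabp4 fell by 0.51 (adjusted p = 3.19e-04) and 0.22 (adjusted p = 0.0105), and both are also made by fat cells or macrophages. Gpihbp1, which anchors lipoprotein lipase to capillary walls, differed by 0.12 between the diets (adjusted p = 0.230) and fell by 1.11 on normal diet from week 0 to week 24 (adjusted p = 2.07e-06). The Cd36 probe was detected on 3 arrays only and differed by 0.15 (adjusted p = 0.274).

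**Figure D4:**
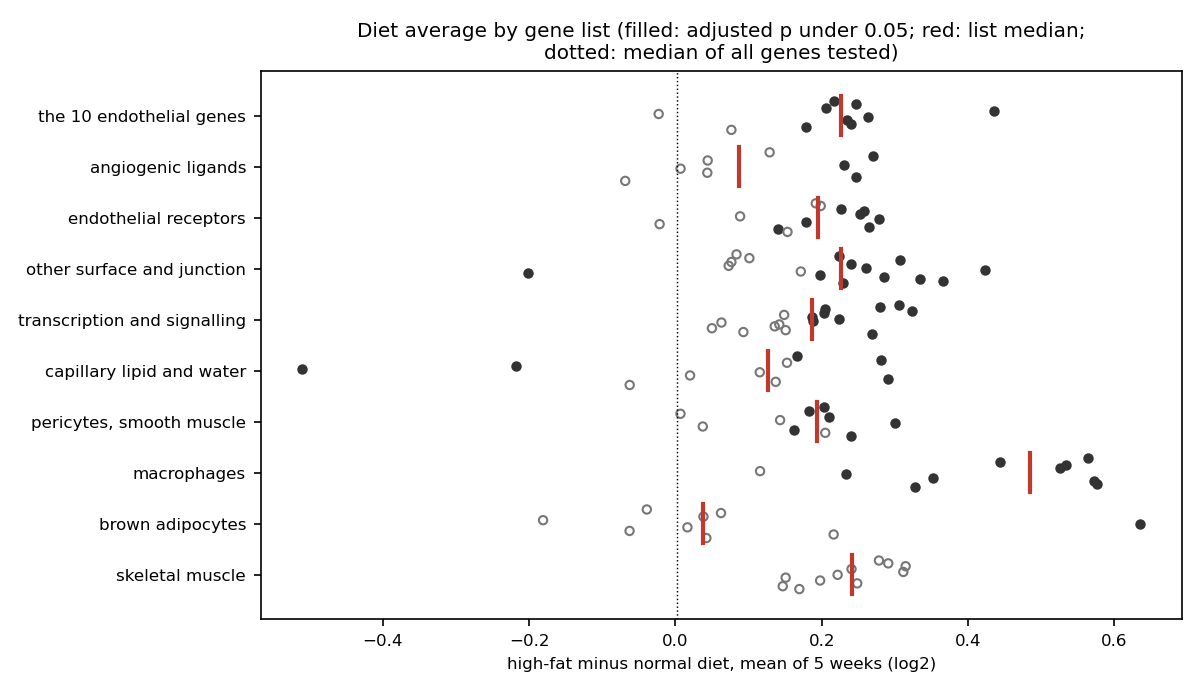
High-fat minus normal diet as the mean of 5 weeks (log2, horizontal axis) for each measured gene (points, filled where the adjusted p is under 0.05) of the 10 endothelial genes and of 9 other lists; red bars are list medians and the dotted line is the median of all genes tested. The medians are 0.23 for the 10 endothelial genes, 0.20 for the other receptors, 0.48 for macrophage markers and 0.04 for brown adipocyte genes.

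Markers of other cell types moved along with these results. Here and in the next 2 paragraphs the share of all genes called higher was 15.4% for the mean and 12.7% at week 24. Of 10 measured macrophage markers 9 rose for the mean of the weeks, with a median of 0.48, and all 10 rose at week 24, with a median of 1.24. The smallest p-values for the mean were those of the mannose receptor gene Mrc1, which rose by 0.58 (adjusted p = 1.55e-07), and the complement genes C1qa (0.44, adjusted p = 1.98e-06) and C1qb (0.53, adjusted p = 3.45e-06). Their summed signal was 10600 to 11400 on high-fat arrays of week 24 and 3861 to 4745 on normal diet arrays of that week. At weeks 2, 4, 8 and 20 it was 2449 to 6069 on normal diet and 3209 to 8638 on high-fat diet. Itgam and Fcgr1, which also mark macrophages, failed the detection filter. With the mean of the macrophage markers as a covariate 1 of 10 endothelial genes passed for the mean of the weeks (Sox18, 0.39, SE 0.099, adjusted p = 0.0357), with 8 at an unadjusted p under 0.05, and none at week 24 (5 at an unadjusted p under 0.05). In that fit the week 24 differences were 0.61 for Icam2 (SE 0.36), 0.59 for Egfl7 (SE 0.22) and 0.81 for Esam (SE 0.26), beside 0.74, 0.56 and 0.54 without the covariate, so the SEs were wider by far than the 0.13, 0.078 and 0.095 of the fit without it. At week 24 the covariate itself was 9.05 to 9.16 on high-fat arrays and 7.80 to 8.02 on normal diet arrays. Diet and macrophage signal thus cannot be told apart there. For the mean of the weeks the differences with the covariate were larger for Cdh5 (0.44), Pecam1 (0.38), Esam (0.30), Tek, Egfl7 and Sox18. They were smaller for Icam2 (0.39) and Mmrn2 (0.22). The 8 falls on normal diet from week 0 to week 24 all passed with this covariate, and 3 of the 9 to week 20 did (Egfl7, Esam and Tek).

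Skeletal muscle markers, which could come from muscle next to the depot, moved with the weeks. On normal diet all 11 measured rose from week 0 to week 20, with a median of 1.62, and 9 of 11 from week 0 to week 24, with a median of 1.83. Of all 9630 genes 3200 and 4649 passed in these comparisons, counted in either direction. Their summed signal was 7059 to 8873 at week 0 and 29040 to 35310 at week 24 on normal diet, and 12400 to 87160 on high-fat arrays of week 24. None of the 11 passed for the mean diet difference, where their median was 0.24. With their mean as a covariate the diet counts of endothelial genes were the same (8 for the mean, 5 at week 20 and 7 at week 24), as was the 8 for normal diet week 24 against week 0, and week 20 against week 0 gave 8 in place of 9.

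Pericyte and smooth muscle genes, which mark the cells that wrap vessels, rose for 6 of 10 measured, with a median of 0.19. Kcnj8, a potassium channel gene of pericytes, rose by 0.30 (adjusted p = 8.34e-06) and Rgs5, another pericyte gene, by 0.24 (adjusted p = 0.00118). On normal diet 7 of the 10 fell and 1 rose from week 0 to week 20, with a median of -0.48. To week 24, 4 fell and 1 rose, with a median of -0.16. The shares of all genes called lower in these comparisons were 18.4% and 24.2%. Of 7 lymphatic genes 3 were measured, and Pdpn (0.32, adjusted p = 6.24e-05) and Ccl21a (0.21, adjusted p = 0.0456) rose. Brown adipocyte genes rose for 1 of 9 measured (Fabp3, 0.64, adjusted p = 1.46e-11) and fell for none. Of 8 platelet genes 2 were measured, and Pf4 rose by 0.49 (adjusted p = 0.00673) while Itga2b, which platelets carry on their surface, differed by -0.05 (adjusted p = 0.787). Of 13 lymphocyte genes 2 were measured and neither passed, so the other carriers of Icam2 and Pecam1 were only partly covered. Of the hypoxia-induced genes, 6 of 10 measured, Ldha fell by 0.22 (adjusted p = 3.29e-05) and Egln3 by 0.27 (adjusted p = 0.00304), and none rose. The share of all genes called lower for the mean was 11.7%. Fibroblast genes rose for 5 of 8, proliferation genes for 3 of 4 measured, general fat cell genes for 1 of 6, Schwann cell genes for 1 of 3 and red cell genes for 0 of 3, none of the 3 at an unadjusted p under 0.05. At week 24 fibroblast genes rose for 6 of 8, with a median of 0.48, and proliferation genes for 3 of 4, with a median of 1.09, beside 0.40 for the 10 endothelial genes. The part of these cell types in the endothelial results was not tested. The covariate fits above cannot separate it from diet where markers and diet move together.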

How the data were processed

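Brown fat RNA of 33 samples was measured on Illumina mouse bead arrays. Probe intensities and detection p-values were deposited without normalization between arrays, made with BeadStudio 3.1.3 per the submitters' processing notes. Whether background had been subtracted is not given in the sources used here. A deposited table of log2 values shares 1 distribution over all arrays, as quantile normalization gives, and served as an alternative. Columns were matched to samples by name, and groups came from the labels for diet and week.

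The deposited intensities were corrected for background by limma's normexp method with the negative control level estimated from detection p-values (offset 16), quantile normalized and put on the log2 scale. A probe was kept with a detection p under 0.01 on at least 3 of 33 arrays, which left 17243 probes. Of all probes 34885 have 1 gene symbol in the platform annotation, 18 several and 10378 none, and 34807 symbols were updated through Entrez identifiers. The brightest probe stood for each of 9630 genes. One limma model with 11 group means (22 residual and 4.129 prior degrees of freedom) gave moderated tests, adjusted by Benjamini-Hochberg over the 9630 genes at 0.05. The model was tested on simulated data. Second probes were tested in the same model over the 17243 probes. Versions were R 4.3.3, limma 3.58.1, version 1.17.8 of data.table, Python 3.11.15, pandas 2.3.3 and matplotlib 3.10.9.

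The 10 genes and all gene lists were chosen with earlier results of these data known. Genes named beyond the 10 were up to 4 per list with the smallest p for the mean diet difference, the 8 genes most correlated with the 10, and Vegfa, Angpt1, Angpt2, Angptl4, Gpihbp1 and Cd36. Lists with counts cover vascular ligands, receptors, surface genes, transcription and signalling genes, capillary handling genes, other cell types, hypoxia and proliferation. Alternatives changed the background correction, scaling, detection filter, probe choice, variance model, weights, covariates and arrays. The number of arrays limits the precision.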

Additional observations from a re-analysis of the deposited data

Results flagged for a closer look

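The diet difference differed between weeks in a test of the difference itself for Egfl7 (F test in limma, adjusted p = 0.01056), Esam (adjusted p = 0.01975) and Mmrn2 (adjusted p = 0.04738). All 3 had their widest gap at week 24, the week whose arrays were separate from the rest, and without that week the adjusted p-values were 0.354, 0.367 and 0.344. Mmrn2 lost this call in 24 of the 33 fits that each leave out 1 array, Esam in 2 and Egfl7 in none. The part of the week 24 arrays in this pattern was not tested further. No group had enough arrays for a test of single outlying values.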

How the results depend on the processing

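Counts of the 10 endothelial genes past the threshold were compared over all alternatives. Counts of all genes moved as well, so a lower count is not by itself particular to the 10. For all genes the counts ran from 186 to 3153 for the mean diet difference (main 2608). At week 20 they ran from 35 to 762 (main 448) and at week 24 from 34 to 2980 (main 1961). For the mean diet difference, main count 8, median shift scaling gave 2, the macrophage covariate 1 and the fit without week 24 5. At week 8, main count 0, median shift gave 1 (Tie1, lower) and array weights 1 (Mmrn2, higher). At week 20, main count 5, median shift gave 0 (4 at an unadjusted p under 0.05), the macrophage covariate 3 and the 6 arrays alone 0 (7 unadjusted). At week 24, main count 7, the macrophage covariate gave 0 (5 unadjusted). For diet by week, main count 3, array weights gave 5 and the fit without week 24 0 (4 unadjusted). Over the high-fat weeks, main count 6, the macrophage covariate gave 3 and the fit without week 24 2. Median shift also gave 6 there, with 3 genes exchanged for 3 others. For normal diet week 20 against week 0, main count 9, the macrophage covariate gave 3. For high-fat week 24 against week 2, main count 5, the macrophage covariate gave 0 (0 unadjusted). For the difference between the diets in that change, main count 2, array weights gave 4 and the macrophage covariate 0 (3 unadjusted). The cause was not tested.

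With 1 array left out the counts ran from 8 to 8 for the mean diet difference, 0 to 1 at week 8, 3 to 7 at week 20, 5 to 8 at week 24, 1 to 4 for diet by week, 9 to 9 over the normal diet weeks, 4 to 7 over the high-fat weeks, 8 to 10 for normal diet week 20 against week 0 (the tenth being a rise of Kdr), 8 to 8 for week 24 against week 0 and against week 2, 4 to 5 for high-fat week 24 against week 2, and 2 to 4 for the difference in that change. At week 8 the call was Cdh5 (0.457, adjusted p = 0.0406) without high-fat replicate 2 and Pecam1 (0.501, adjusted p = 0.0111) without replicate 3. At weeks 2 and 4 the count was 0 in all fits. The 4 in the difference between the diets came without normal diet replicate 3 of week 24. Whether the replicate numbers pair the arrays was not tested. Of 15 same-numbered pairs 2 had a correlation over 0.1 (median 0.013). Of 30 differently numbered pairs 1 had a correlation over 0.1 (median 0.0051). The replicate block gave 8, 0, 0, 0, 5, 7, 3, 9, 6, 9, 8, 8, 5 and 2, as without it.

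Among the diet differences and the changes from week 0 on normal diet, no value that changed sign had passed the threshold. For the changes from week 2 to week 24 signs of single genes were not compared. On high-fat diet more genes passed there as higher with median shift than the 3 that were positive in the main fit. Median shift turned the week 8 differences of Icam2 (-0.062), Sox18 (-0.052), Mmrn2 (-0.078), Egfl7 (-0.229), Esam (-0.195), Tek (-0.126), Cdh5 (-0.087) and Pecam1 (-0.026), and that of Esam at week 4 (-0.032). Kdr turned at week 4 with no background correction (0.003), median shift (0.035), the authors' log2 values (0.001), array weights (0.044) and the muscle covariate (0.014), at week 20 with median shift (-0.06) and array weights (-0.027), at week 24 with median shift (0.098) and array weights (0.024), and for the mean with array weights (0.015). The macrophage covariate turned Esam at week 2 (0.003) and Sox18 (0.077), Tek (0.042), Cdh5 (0.213) and Tie1 (0.012) at week 4. With 1 array left out, Egfl7 at week 2 ran from -0.039 to 0.029 and Cdh5 from -0.029 to 0.133. At week 4 Esam ran from -0.04 to 0.062, Tek from -0.136 to 0.013, Kdr from -0.193 to 0.181, Mmrn2 from -0.042 to 0.023 and Cdh5 from -0.139 to 0.01. Tie1 ran from -0.23 to 0.085 at week 8. Kdr ran from -0.2 to 0.144 at week 20, -0.15 to 0.012 at week 24 and -0.065 to 0.014 for the mean.

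Arrays carry no counts, so depth is set by signal over background, which limits Kdr alone among the 10 genes.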
